A study of Mus musculus with 4 samples.

Results

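Differentiating myoblasts and myocytes are the muscle cells that have left the progenitor state and begun to build the contractile apparatus. They were taken here from embryonic mouse knee joint primordia, and 759 of 44320 kept cells (1.71%) were assigned to them. Members were chosen by a measured value: a cell was kept with 200 to 6000 detected genes and at most 10% of its unique molecular identifiers (UMIs, 1 per captured RNA molecule) from mitochondrial genes, and it was a member with 2 or more UMIs summed over Myog and Mymk. Levels of Myog and Mymk in the members therefore describe the choice and are no result.

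In the embryonic limb, progenitors marked by Pax7 and Myf5 switch on Myod1 and then Myog, a transcription factor that drives withdrawal from the cell cycle and the genes of the sarcomere. Mymk and Mymx encode the membrane proteins myomaker and myomixer, which let mononucleated myocytes fuse into myofibres. Muscle cells of the limb descend from the somites, whereas the limb skeleton, tendons and connective tissue descend from the lateral plate.

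The study asked how loss of the glucose transporters Glut1 (gene Slc2a1) and Glut3 (gene Slc2a3) alters the forming knee joint. The muscle cells are those that remained on the knee region after the soft tissue around it had been taken away. Droplet-based 3' RNA sequencing gave 4 libraries, 1 per condition. How many embryos entered each library was not given, beyond a general minimum of 3 per genotype in each experiment of the study.

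An E13.5 control and an E14.5 control carried no Cre, the third library came from E14.5 Prx1Cre;Glut1f/f;Glut3f/+ embryos (the Glut3f/+ library), and the fourth from E14.5 embryos with Prx1Cre and both floxed alleles of each gene, Glut1f/f;Glut3f/f (the DCKO library). Prx1Cre is active in limb mesenchyme and not in the muscle lineage, so the members of the last libraries are muscle cells in a limb whose mesenchyme carried the deletion. Values for 4 libraries are given in this order throughout. The libraries held 12769, 9707, 11690 and 11602 cell barcodes with 100344565, 84188147, 97110697 and 91574038 UMIs. Kept cells numbered 12446, 9305, 11264 and 11305. Pairs of libraries shared 25 to 40 barcodes, and 0 barcodes were members in both libraries of a pair.

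Sex differed between the libraries. Xist, transcribed from the inactive X chromosome, stood at 584, 0, 790.3 and 791 CPM in members, CPM being the UMIs of a gene scaled to 1000000 UMIs summed over the cells of a library. The Y-linked Ddx3y stood at 15.7, 69.9, 0 and 0, and Eif2s3y, also on the Y chromosome, at 12.6, 46.2, 0 and 0. The E14.5 control thus held male cells, both Cre libraries held female cells, and the E13.5 control held cells of each sex. Sex and genotype cannot be told apart at E14.5, and the mix of sexes also changed with age between the controls. With 1 library per condition, no difference between conditions has a replicate check, and every interval below covers counting error or the spread between cells of 1 library only.

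The label was checked against its marker genes. Levels are given as CPM over the summed members of a library. Actc1, the sarcomeric actin that predominates in embryonic muscle, stood at 3797, 2471, 2152 and 1544 CPM in members against 4.97, 0.772, 1.22 and 0.265 CPM in non-muscle cells, which had no UMI of Myog, Mymk, Pax7, Myf5 or Myod1. Ttn, which encodes titin, the spring of the sarcomere, stood at 1246, 721, 767 and 703 CPM. Neb encodes nebulin, which runs along the thin filament. It stood at 511, 377, 322 and 280.2 CPM. Myh3, the embryonic myosin heavy chain, stood at 452, 70.5, 156 and 125 CPM. All 4 of these marker genes, none of which entered the rule, were far above their level in non-muscle cells of the same library, and Actc1 was found in 90.0%, 94.6%, 95.4% and 88.6% of members. Myh3 was found in 29.9%, 19.4%, 21.1% and 11.4% of members, and 69.0% of its DCKO UMIs came from 1 cell. Myog itself stood at 1608, 1910.3, 1569 and 1106 CPM and Mymk at 233, 209, 180.04 and 106 CPM.

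At the threshold, 310, 77, 107 and 34 kept cells had exactly 1 UMI of Myog and Mymk and were left out, and 56, 16, 15 and 5 had exactly 2 and were taken in. Actc1 was found in 14.2%, 16.9%, 22.4% and 20.6% of the cells just outside. Among those just inside it was found in 64.3%, 68.8%, 80.0% and 20.0%, the last being 1 of 5 cells. In kept cells with no UMI of either rule gene it was found in 3.60%, 0.703%, 1.2% and 0.249%, at median depths of 6064, 7223, 6684.5 and 6363 UMIs. In the first 3 libraries, cells on either side of the threshold thus differed in a gene the rule did not use. Cells just inside were also deeper, with medians of 9618.5, 14839.5, 11137 and 12574 UMIs against 7709, 8995, 7929 and 8401.5 just outside. The part of depth in the difference was not tested. Of the members, 215, 76, 98 and 18 had UMIs of both rule genes, 193, 51, 76 and 25 of Myog alone, and 3, 2, 1 and 1 of Mymk alone.

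Members were unevenly spread over the libraries. There were 411, 129, 175 and 44 members, or 3.30% (95% Clopper-Pearson interval 3.0% to 3.63%), 1.39% (1.16% to 1.65%), 1.55% (1.33% to 1.80%) and 0.389% (0.283% to 0.522%) of kept cells. The E13.5 share lay above the others and the DCKO share below them beyond counting error, while the intervals of the E14.5 control and the Glut3f/+ library overlapped. The median member held 10473, 12581, 12408 and 9856.5 UMIs against 6176.5, 7279, 6757 and 6379 in all kept cells. After every kept cell was thinned to 2000 UMIs, which left out 1123, 598, 782 and 857 shallower cells, the shares were 2.13%, 0.930%, 1.03% and 0.233%, in the same order. How much muscle was left on the anlagen cannot be told apart from the number of muscle cells in the limb.

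Under the rule used, members made up a like share of the muscle lineage in every library. Lineage cells, with 2 or more UMIs summed over Myog, Mymk, Pax7, Myf5 and Myod1, numbered 749, 241, 359 and 84, or 6.02%, 2.59%, 3.19% and 0.743% of kept cells. Members were 54.9% (51.2% to 58.5%), 53.5% (47.0% to 60.0%), 48.7% (43.5% to 54.0%) and 52.4% (41.2% to 63.4%) of them. All 4 intervals overlapped, so under this rule a difference in the balance of progenitors and differentiating cells was not detectable at this depth. With 1 or more UMIs as the rule for members, the shares were 73.3%, 67.3%, 65.0% and 69.6%, and their differences were not tested. No intervals were computed for these shares, so a like share is stated for the rule used alone.

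Slc2a1, the gene of the transporter Glut1, had 125, 41, 181 and 35 UMIs in members, or 27.2, 23.7, 78.9 and 75.5 CPM. Slc2a3, the gene of Glut3, had 2.39, 1.73, 3.05 and 2.16 CPM in members. A UMI is counted from the 3' end of a transcript and need not cover the deleted part, so these levels check nothing about the deletion. The log2 ratio of Slc2a1 over the E14.5 control was 1.72 (1.24 to 2.26) in the Glut3f/+ library and 1.67 (0.98 to 2.36) in the DCKO library, both called higher (at least 2-fold, with a counting interval excluding equality). Of the DCKO UMIs, 42.9% came from 1 cell. In non-muscle cells Slc2a1 stood at 50.4, 66.6, 357 and 433 CPM, so both Cre libraries lay above both controls outside muscle too. Without the tenth of members with the highest share of UMIs from marker genes of other cell types, Slc2a1 stood at 25.1, 21.4, 38.3 and 46.1 CPM, and the ratios were 0.83 and 1.12. The part that RNA of other cells has in this result was not tested.

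Members were then set beside myogenic progenitors of the same library, cells with 2 or more UMIs summed over Pax7 and Myf5 and with no UMI of Myog or Mymk. There were 178, 83, 116 and 22 of these. The rule selected on this very contrast, so the values describe the cells chosen and support nothing. A gene was called when its level differed at least 2-fold, the exact conditional binomial 95% interval of the ratio excluded equality, and 20 CPM and 20 UMIs were reached in either group. In every library, 81 of 2942 genes tested were called higher in members (2.75%) and 8 called lower (0.272%). In single libraries, 5.44%, 5.38%, 4.97% and 5.29% of genes tested were called higher and 4.07%, 5.33%, 4.29% and 2.07% lower.

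Mymx and genes of the sarcomere were higher in members. Mymx, the fusion partner of Mymk, stood at 271, 318, 309 and 179 CPM in members and at 0.495, 0, 0 and 0 CPM in progenitors. It was not used by the rule and was found in 53.8%, 63.6%, 57.1% and 52.3% of members. Tnnt2, the troponin T of heart and embryonic muscle, stood at 422, 547, 520.5 and 237 CPM against 3.96, 1.57, 2.71 and 0 CPM. The myosin light chain gene Mylpf stood at 3171, 401, 1249 and 563 CPM against 12.9, 6.27, 7.04 and 0 CPM. Of the genes tested in all 4 libraries, 4 of 5 thick filament genes, 9 of 11 thin filament genes and 6 of 7 genes of titin and the Z disc were called higher in each. Of the fusion and myoblast surface list 2 of 10 were, with list medians of 0.28, 0.45, 0.60 and 0.73.

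Of 9 progenitor genes tested in all 4 libraries, 1 was called higher and 2 lower in each, against 2.75% and 0.272% of all genes. The list medians were -0.47, -0.26, -0.08 and 0.05. Myod1, the factor that commits cells to muscle, stood at 465, 418, 374 and 358 CPM in members and at 79.7, 143, 108 and 145 CPM in progenitors. Pax7 stood at 13.496, 26.6, 20.9 and 19.4 CPM in members and was found in 9.73%, 20.9%, 17.1% and 15.9% of them, against 2.08%, 1.01%, 1.29% and 0.240% of kept cells with no UMI of Myog or Mymk. Msc, which encodes musculin, a repressor of myogenic factors, was among the 8 genes called lower in every library, at 46.8, 42.8, 35.7 and 43.1 CPM against 323, 324, 285 and 286 CPM. The others were Fxyd7, Cald1, Col4a1, S100a10, Tkt, Spry1 and Cited1. Spry1 restrains growth factor signalling in muscle stem cells.

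Cdkn1a, which encodes the inhibitor p21, stood at 425, 331, 247 and 144 CPM in members against 11.9, 12.5, 16.3 and 12.1 CPM in progenitors. Cdkn1c, which encodes p57, stood at 7957, 9521, 8096 and 7858 CPM against 3531, 4178, 3579.7 and 3423 CPM. Of the cell cycle exit list, 4 genes were called higher in each library, of 9, 9, 8 and 7 tested, and 2 were called lower in the E14.5 control. The list medians were 0.23, 0.09, 0.04 and 0.41. S phase genes were called lower in 6 of 30, 0 of 30, 6 of 30 and 6 of 20 tested, and G2/M genes in 4 of 41, 2 of 40, 2 of 41 and 0 of 31, with 1 G2/M gene called higher in the DCKO library. Over all genes 4.07%, 5.33%, 4.29% and 2.07% were called lower. Of the genes tested in all 4 libraries, 0 of 20 S phase genes and 0 of 31 G2/M genes were called in every library. The median log2 ratio of the S phase genes was -0.81, -0.56, -0.74 and -0.71, and that of the G2/M genes -0.69, -0.31, -0.42 and 0.03. The median over all genes was -0.17, -0.08, -0.11 and -0.01.

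Members differed widely in how much of their RNA was contractile. The contractile share is the percentage of a cell's UMIs that come from the 61 genes of the thick filament, thin filament, and titin and Z disc lists. Its median was 0.892% (0.781% to 1.02%), 0.772% (0.625% to 0.923%), 0.616% (0.543% to 0.717%) and 0.535% (0.396% to 0.724%) of a member's UMIs. Progenitors had medians of 0.266%, 0.190%, 0.162% and 0.229%, and non-muscle cells 0.0803%, 0.0718%, 0.0611% and 0.0574%. The intervals of the member medians are taken over the cells of 1 library, reflect the spread between cells, and support no difference between libraries. With 1 or more UMIs as the rule for members the medians were 0.453%, 0.463%, 0.406% and 0.347%, in another order. The 95th percentile was 9.49%, 2.70%, 6.09% and 3.01%, and 56, 2, 10 and 2 members had 5% or more of their UMIs from contractile genes. These were 13.6% (10.5% to 17.3%), 1.55% (0.188% to 5.49%), 5.71% (2.77% to 10.3%) and 4.55% (0.555% to 15.5%) of members. The E13.5 share lay above those of the E14.5 control and the Glut3f/+ library beyond counting error, and the E14.5 libraries overlapped with each other.

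**Figure D1:**
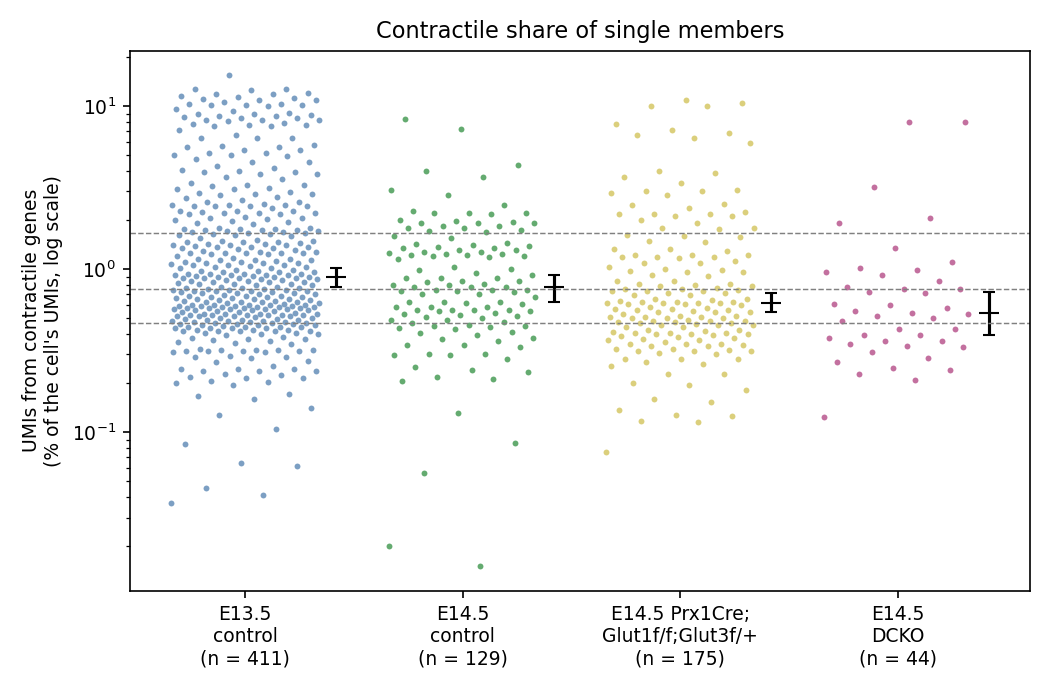
Contractile share of each member (percent of the cell's UMIs, log scale, 1 point per cell, a share of 0 drawn at 0.02%) in the 4 libraries, with the median and its 95% interval in black beside the points and the limits between the 4 ranges as dashed lines. The medians lie between 0.535% and 0.892%, and 56 of 411 E13.5 members lie at 5% or more against 2 of 129 members of the E14.5 control.

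To describe genes outside the contractile lists along this axis, members of all libraries were divided at the quartiles of the pooled share, 0.465%, 0.755% and 1.68%, into 4 ranges. These are ranges of a score and not cell types, and 168 members lay within 10% of a limit. The lowest to highest range held 83, 96, 106 and 126 members of the E13.5 control, 31, 33, 39 and 26 of the E14.5 control, 58, 48, 36 and 33 of the Glut3f/+ library, and 18, 13, 8 and 5 of the DCKO library.

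Pax7 and Msc were lowest, and Mymx highest, in the cells with the most contractile RNA. With the 4 libraries summed, Pax7 stood at 32.6, 28.1, 5.58 and 0.477 CPM, and Msc at 86.6, 52.4, 14.2 and 3.81 CPM. Both were lowest where contractile RNA was highest. Myod1 had its highest level in the third range, at 300.1, 403, 550.4 and 505 CPM. The fusion gene Mymx stood at 16.6, 91.3, 419.5 and 718 CPM. In each library taken alone, Mymx was higher in the highest than in the lowest range, with log2 ratios of 6.05, 5.71, 5.34 and 4.89.

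Proliferation genes were lowest in the highest range. Mki67, a marker of cycling cells, stood at 192, 177, 119.7 and 21.4 CPM, and the summed S phase genes at 3233, 3307, 1677 and 508 CPM. The summed G2/M genes stood at 7674, 6769, 5738 and 2034 CPM. The lower ranges thus carried S phase RNA at several times the level of the highest. Cdkn1a moved the opposite way, at 48.5, 79.7, 325 and 1051 CPM. Between the lowest and the highest range the log2 ratio of the summed S phase genes was -2.41, -3.13, -3.22 and -3.25 in the 4 libraries, and that of Cdkn1a was 5.38, 4.73, 3.49 and 4.09. The DCKO values rest on 18 cells in the lowest and 5 in the highest range. The median cell of the lowest range held 11459, 15094, 15668.5 and 13169.5 UMIs, against 10175.5, 10079, 10380 and 10763 in the highest. RNA of chondrocyte marker genes was also highest in the lowest range. The part of depth or of RNA from other cells in these differences was not tested.

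**Figure D2:**
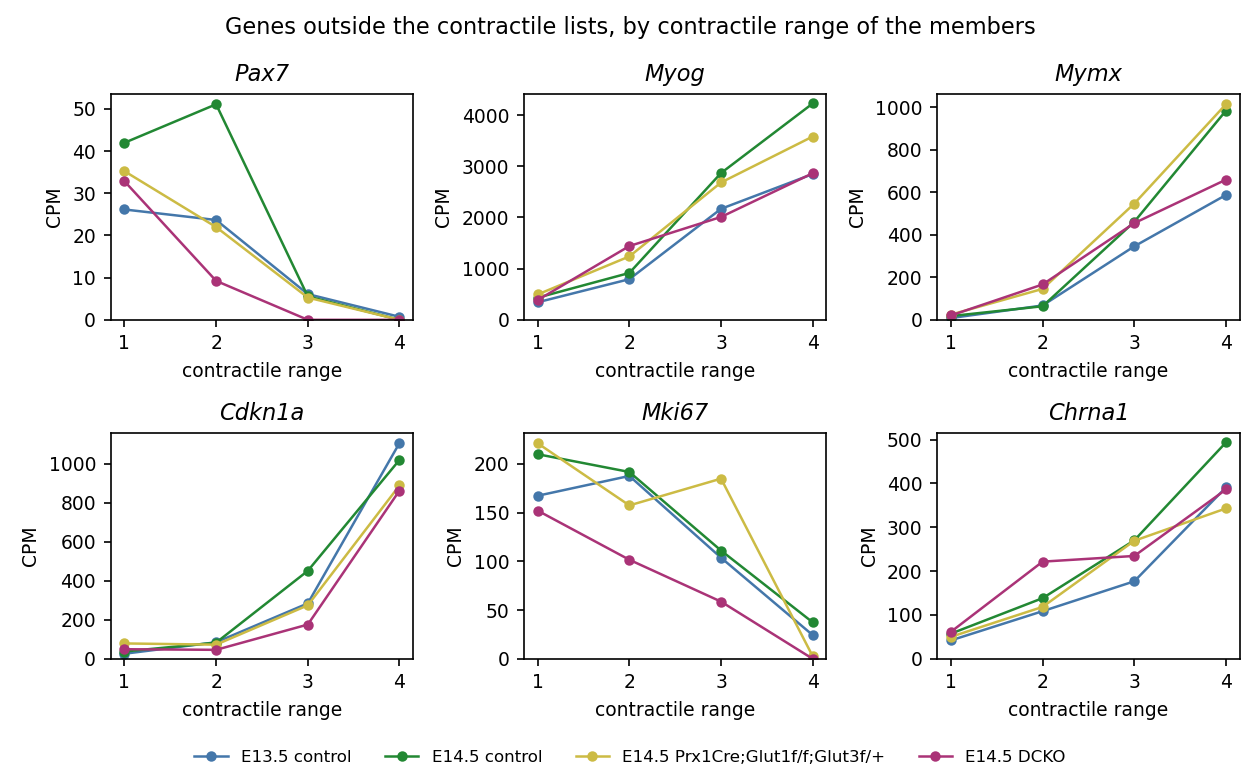
Levels (CPM) of 6 genes outside the contractile lists in the members of each contractile range, from 1 (lowest share) to 4 (highest), with 1 line per library. Mymx, Cdkn1a and Chrna1 are higher in range 4 than in range 1 in every library, and Pax7 and Mki67 are lower, Myog being a gene of the membership rule and drawn as a description, while range 4 of the DCKO library holds 5 cells.

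Chrna1 and Chrng were higher in the higher ranges. Chrna1, the alpha subunit of the muscle acetylcholine receptor, stood at 49.2, 123, 222 and 395 CPM over the 4 ranges, and Chrng, the fetal gamma subunit, at 14.8, 31.2, 65.9 and 169 CPM. In single libraries Chrng stood at 14.02, 15.5, 11.7 and 28.8 CPM in the lowest range and at 184, 93.5, 170.2 and 114 CPM in the highest. The adult epsilon subunit Chrne had no UMI in members. Receptor RNA was thus present in the lowest range too. Sln, which encodes sarcolipin, an inhibitor of the calcium pump, had no UMI in the lowest range of any library and 899, 172, 929 and 523 CPM in the highest. Stac3, needed to couple the calcium channel to contraction, stood at 6.54, 0, 3.20 and 4.11 CPM in the lowest range and at 144, 183, 157 and 227 CPM in the highest. Mef2c, a transcription factor that acts with the myogenic factors, stood at 54.2, 22.1, 58.7 and 8.22 CPM against 1093, 434, 851 and 954 CPM. Sln, Stac3 and Mef2c were chosen for this description after their values were seen.

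Some genes of muscle energy supply were also highest in the highest range. Pgam2, the muscle phosphoglycerate mutase, stood at 30.0, 58.4, 96.4 and 599 CPM over the ranges, and Eno3, the muscle enolase, at 49.6, 72.3, 55.8 and 412 CPM. Ckb, the brain-type creatine kinase that precedes the muscle enzyme in development, stood at 214, 456, 735 and 1235 CPM. Within each library the log2 ratio of the highest over the lowest range was 4.25, 3.63, 4.19 and 3.90 for Pgam2, 3.38, 1.10, 2.44 and 4.16 for Eno3, and 2.24, 2.16, 2.17 and 2.26 for Ckb. Summed over their lists, glycolysis genes stood at 6453, 6089, 6409 and 8849 CPM and nuclear genes of oxidative phosphorylation at 33099, 32509, 30388 and 29220 CPM. Eno3 was chosen after its values were seen.

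Between E13.5 and E14.5, members of the control libraries differed in contractile genes, many of which were lower at E14.5. The mix of sexes changed between these libraries too, and its part was not tested. Of 38 contractile genes tested, 22 were called lower and 0 higher. Over all genes, 264 of 5514 tested were called (4.79%), 60 higher (1.09%) and 204 lower (3.7%). The median log2 ratio of 53 contractile genes was -1.79 against -0.07 over all genes. Acta1, the skeletal actin of mature fibres, stood at 1068 and 32.4 CPM, a log2 ratio of -5.03 (-5.45 to -4.67). Mylpf stood at 3171 and 401 CPM (-2.98, -3.10 to -2.87), and Myh3 at 452 and 70.5 CPM (-2.68, -2.96 to -2.42). The other marker genes were not called. Actc1 had a log2 ratio of -0.62 (-0.67 to -0.57), Ttn of -0.79 (-0.88 to -0.70) and Neb of -0.44 (-0.57 to -0.31), and Myog of 0.25 (0.19 to 0.31).

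The highest contractile range gave 81.1% of contractile UMIs at E13.5 and 40.8% in the E14.5 control. The ranges were drawn on contractile RNA itself, so ratios of contractile genes without that range test nothing.

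The falls with age are given for genes at least 2-fold higher in members than in non-muscle cells, which favours muscle genes, and larger falls of Xist and the globin Hbb-y lie outside this limit. Myh7, Fabp3 and Pdlim3 met it at E13.5 and not in the E14.5 control. Fabp3 and Pdlim3 stood there at 3.47 and 2.31 CPM, against 5.58 and 10.4 CPM in non-muscle cells, so the limit favours falls. Acta1 was among the 10 largest. Myh7, the slow myosin heavy chain of the thick filament list, had 125 UMIs in the E13.5 control and 0 in the E14.5 control, 15.7-fold lower with the count of 0 taken as 3, with a counting interval that ends at a log2 ratio of -3.65. Tcap, the titin cap at the Z disc, had 265 and 1 UMIs, a log2 ratio of -6.06 with a counting interval from -11.95 to -4.15. Itgb1bp2, which encodes melusin, had 245 and 2 UMIs (-5.21, -8.58 to -3.66), and Csrp3, the muscle LIM protein, 226 and 2 UMIs (-5.09, -8.47 to -3.54). Melusin and the muscle LIM protein are known as parts of the mechanical sensing machinery of striated muscle. Myo5b had 115 and 1 UMIs (-4.86, -10.75 to -2.93). The next falls were Fabp3 (-4.74), Mustn1 (-4.59), Pdlim3 (-4.20) and Tnnc2 (-3.75), with 68.6% of the Tnnc2 UMIs at E14.5 from 1 cell. Fabp3 carries fatty acids in oxidative muscle, and Mustn1 is a small nuclear protein of muscle and bone.

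Genes called higher at E14.5 were of other kinds. Cavin2, a coat protein of caveolae, stood at 19.2 and 109.8 CPM, a log2 ratio of 2.51 (2.15 to 2.90). Heyl, a Notch target, stood at 8.05 and 22.5 CPM (1.48, 0.80 to 2.17), and Dok7, an activator of the receptor kinase MuSK at the neuromuscular contact, at 27.0 and 64.7 CPM (1.26, 0.88 to 1.64). Dok7 was the 1 synapse gene called higher of 7 tested, and Chrng and Ache were called lower. Over all genes, 1.09% were called higher with age and 3.7% lower. Bcam, Chn2, Aunip and Sync also rose, by log2 ratios of 1.35, 1.33, 1.28 and 1.23. Sync encodes syncoilin, an intermediate filament protein of muscle. The histone genes Hist1h1d, Hist1h3e and Hist1h1b had log2 ratios of 1.65, 1.23 and 1.14, and 0 of 26 S phase genes were called, with a list median of 0.30. Nfix, which directs the switch from embryonic to fetal muscle genes, stood at 25.7 and 74.0 CPM, a log2 ratio of 1.53. It was the 1 late regulator called higher of 15 tested, and Mef2c and Klhl40 were called lower, with a list median of 0.05.

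**Figure D3:**
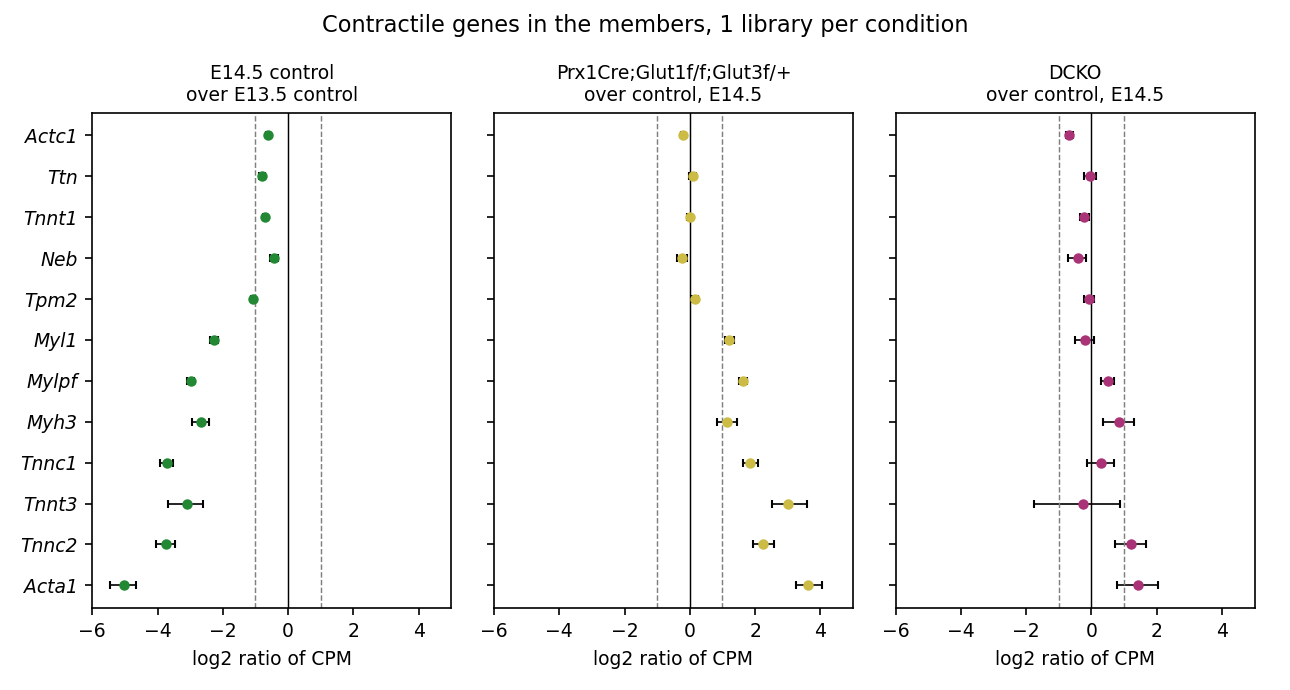
Log2 ratio of CPM of 12 contractile genes in members (points) with 95% counting intervals (bars) in 3 comparisons of single libraries, with dashed lines at the 2-fold limits. Acta1 runs from -5.03 for age to 3.62 for the Glut3f/+ library, while Actc1, Ttn, Tnnt1 and Neb lie inside the limits in each panel.

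Compared with the E14.5 control, members of the Glut3f/+ library had higher levels of many contractile genes. Of 34 contractile genes tested, 15 were called higher and 0 lower. Over all genes, 111 of 5306 tested were called (2.09%), 83 higher (1.56%) and 28 lower (0.528%). With 1 or more UMIs as the rule for members, 24 were called higher and 26 lower of 5570. The median log2 ratio of 46 contractile genes was 0.73 against -0.04 over all genes. These ratios are of summed UMIs, and the median share per member went the opposite way, at 0.772% in the control and 0.616% in the Glut3f/+ library, with 31 of 129 and 58 of 175 members in the lowest range. Acta1 stood at 32.4 CPM in the control and 401 CPM in the Glut3f/+ library, a log2 ratio of 3.62 (3.24 to 4.05). Tnnt3, the fast troponin T, stood at 19.1 and 156 CPM (3.01, 2.51 to 3.59), and Tnnc2, the fast troponin C, at 59.0 and 281 CPM (2.25, 1.95 to 2.57). The embryonic genes Myh3 and Myl4 were also called higher, at 1.14 and 1.72, while Myh1, an adult fast myosin heavy chain, had 16 and 9 UMIs and was too low to be tested. Sln rose as well, from 27.7 to 157 CPM (2.49, 2.06 to 2.97), and Mybph and Tceal7 by log2 ratios of 2.05 and 1.96.

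The highest contractile range gave 63.2% of contractile UMIs in the Glut3f/+ library, and the highest single cell gave 30.5% of its Acta1 UMIs and, for Tnnt3, 31.1%. Among genes 2-fold above non-muscle cells, Tcap (1 and 64 UMIs, log2 ratio 5.02, 3.06 to 10.92), Csrp3 (2 and 70 UMIs, 4.41, 2.82 to 7.80) and Mustn1 (7 and 127 UMIs, 3.68, 2.69 to 5.12) were among the largest rises. Of their Glut3f/+ UMIs, 30.0% to 40.6% came from 1 cell. Gm28578, a gene model without a known role, had 0 and 57 UMIs, 14.3-fold higher with the count of 0 taken as 3 and a counting interval that starts at a log2 ratio of 3.50, with 64.9% from 1 cell. Without the highest member of each gene, a choice made after the data were seen, the contractile median was 0.79, and 14 of 32 tested contractile genes were called higher and 0 lower. Without the highest range, which takes away the cells with the most contractile RNA by construction, the median was -0.24 and 0 of 19 were called.

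The 9 genes that fell in the Glut3f/+ library and were 2-fold above non-muscle cells in the control were Heyl, Sel1l3, Aunip, Usp28, F830016B08Rik, Rps6ka2, Stard13, Hspa4l and Eef2k. Usp28 and Eef2k did not meet this limit in the Glut3f/+ library, at 8.28 and 11.8 CPM against 8.64 and 10.9 CPM, so the limit favours falls. Heyl stood at 22.5 CPM in the control and 6.97 CPM in the Glut3f/+ library, a log2 ratio of -1.67 (-2.63 to -0.82). The falls of the other 8 ran from -1.43 for Sel1l3 to -1.001 for Eef2k, the kinase of elongation factor 2. They rest on 18 to 36 UMIs in the Glut3f/+ library. The E14.5 control is shared with the age comparison, in which Heyl had a log2 ratio of 1.48 and Aunip of 1.28.

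The DCKO library held 44 members and 463874 member UMIs, the lowest depth of the 4. Over all genes, 142 of 5029 tested were called (2.82%), 26 higher (0.517%) and 116 lower (2.31%). The split was 93 higher and 171 lower without the low-value filter and 32 and 83 with a prior count of 2. It was 8 and 210 without the highest member of each gene. That step takes 1 of 44 DCKO cells and 1 of 129 control cells per gene and keeps the totals. By construction it tends to lower DCKO ratios, and the median over all genes was then -0.19 in place of -0.04. With 1 or more UMIs as the rule for members, 51 of these 142 calls were shared, and of 24 contractile genes tested 1 was called higher and 2 lower. The median log2 ratio of 40 contractile genes was -0.00, and of 27 tested 4 were called higher and 3 lower. The higher ones were Acta1 (32.4 and 86.2 CPM, log2 ratio 1.42, 0.79 to 2.02), Tnnc2 (59.0 and 136 CPM, 1.21, 0.73 to 1.67), Actn2 (21.4 and 47.4 CPM, 1.16, 0.32 to 1.95) and Ankrd1 (25.4 and 56.0 CPM, 1.15, 0.38 to 1.87). The highest single DCKO cell of each gave 72.5%, 58.7%, 68.2% and 46.2% of its UMIs. Without the highest member of each gene the contractile median was -0.41 against -0.19 over all genes. Of 25 contractile genes then tested, 1 was called higher and 4 lower, and Acta1 stood at -0.053. The 3 called lower among all members were Tnnt2, Tnni1, the slow troponin I, at -1.28, and Cryab, the small heat shock protein of the Z disc, at -1.04.

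Of the cell cycle exit list, Cdkn1a was the only gene called in DCKO members, of 8 tested. It stood at 331 CPM in the control and 144 CPM in the DCKO library, a called log2 ratio of -1.19 (-1.58 to -0.83). Myog, a rule gene, stood at -0.79 (-0.93 to -0.65), Mymk at -0.97 (-1.45 to -0.55) and Mymx at -0.82 (-1.18 to -0.49), short of the call. Cdkn1a and Mymx were highest in the highest contractile range, which held 5 of 44 DCKO members and 26 of 129 control members. The part of this in the differences was not tested. Ska1 and Ndc80, which join spindle and kinetochore, were called higher at 1.33 (0.42 to 2.18) and 1.07 (0.27 to 1.81), on 20 and 24 UMIs, and Ndc80 was the only G2/M gene called of 39 tested, against 2.82% of all genes. The G2/M list had a median of 0.14.

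Among genes at least 2-fold higher in members than in non-muscle cells, the largest falls in DCKO members rest on 2 to 7 UMIs in that library. Sorcs2, Tmem120b, Atoh8, S100a16 and 2310022A10Rik met this limit in the control and not in the DCKO library, so the limit favours falls. Casz1, a zinc finger factor, had 65 UMIs in the control and 3 in the DCKO library, a log2 ratio of -2.33 (-4.85 to -0.93). S100a16, a calcium-binding protein, had 99 and 7 UMIs (-1.83, -3.27 to -0.83). Sorcs2, Tmem120b, Atoh8, Adgre5, 2310022A10Rik, Sel1l3 and Hspa4l had 2 or 3 UMIs there, with ratios from -2.19 (-5.59 to -0.55) for Sorcs2 to -1.48 (-4.03 to -0.02) for Hspa4l. Atoh8 is a basic helix-loop-helix factor. Of 5 synapse genes tested, Chrnb1, the beta subunit of the receptor, and Dok7 were called lower, at -1.41 and -1.39, against 2.31% of all genes. Of 8 genes of excitation-contraction coupling, Jsrp1, a protein of the junction where calcium is released, was called lower at -1.01. Dok7 and Jsrp1 were also called higher with age in the same E14.5 control, at 1.26 and 1.03. Of 13 excitation-contraction coupling genes tested with age, 1 was called higher and 6 lower, against 1.09% and 3.7% of all genes. Their list median was -1.84.

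Marker genes of other cell types moved with these comparisons. The 15 chondrocyte genes summed to 598, 816, 2181 and 1610.35 CPM in members and to 4281, 13666, 11894 and 12539 CPM in non-muscle cells. Col2a1, the cartilage collagen and the most abundant of them, stood at 213, 281, 774 and 500.1 CPM in members. Against the E14.5 control, 10 of 12 tested chondrocyte genes were called higher in the Glut3f/+ library and 4 of 12 in the DCKO library, with list medians of 1.52 and 0.81. Over all genes, 1.56% and 0.517% were called higher. Over the 4 contractile ranges the summed genes stood at 2506, 565, 404 and 494 CPM, highest where contractile RNA was lowest. Without the tenth of members highest in markers of other cells, they summed to 261, 123, 486 and 312 CPM. The contractile median was then -1.90 for age, 1.09 for the Glut3f/+ library and 0.00 for the DCKO library. Whether such members were doublets or had taken up free RNA was not tested, and no doublet caller was run.

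Red cell RNA moved with age. The 9 erythroid genes summed to 1070.3, 44.5, 39.2 and 21.6 CPM in members, led at E13.5 by the embryonic globin Hbb-y at 781 CPM. Of these, 5 of 5 tested were called lower in the E14.5 control, against 3.7% of all genes. In non-muscle cells they summed to 8819, 8700.45, 3682 and 2549 CPM, and their part in the age comparison was not tested. The 12 fibroblast genes summed to 457, 404, 450.3 and 476 CPM in members against 2332, 2771, 2693 and 2141 CPM, and the 6 interzone genes to 146, 95.4, 153 and 123 CPM. Osteogenic and macrophage genes each summed to under 20 CPM, tendon genes to 48.1, 54.3, 33.6 and 84.1 CPM and endothelial genes to 8.71, 19.7, 27.5 and 8.62 CPM. Ptprc, the pan-leukocyte marker, was at 0 in members of each library. Epidermal genes summed to 26.8, 9.25, 12.2 and 19.4 CPM. The glial list was carried by Erbb3, a receptor that muscle progenitors also use, at 62.3, 50.3, 48.0 and 60.4 CPM, and the mural list by the smooth muscle actin Acta2, at 3112, 1937, 1762 and 2007 CPM against 16.5, 10.9, 26.2 and 6.49 CPM in non-muscle cells. Acta2 is known as an early actin of differentiating myoblasts.

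The shares of isoforms within a protein family also differed between libraries. Acta1 gave 22.0% (21.4% to 22.5%), 1.29% (0.978% to 1.68%), 15.7% (14.8% to 16.7%) and 5.29% (3.81% to 7.14%) of sarcomeric actin UMIs, the rest being Actc1. Tnnt3 gave 5.55%, 0.942%, 7.29% and 1.0% of troponin T UMIs, while Tnnt1, the slow isoform, gave 80.3%, 72.0%, 68.3% and 83.3%. For Acta1 and Tnnt3 the E14.5 control had the lowest share, the DCKO library overlapping with it for Tnnt3, and 72.5% of the DCKO Acta1 UMIs came from 1 cell. Tnnc2 gave 33.4%, 32.8%, 39.1% and 48.1% of troponin C UMIs. Tnni2, the fast troponin I, gave 23.6%, 18.3%, 22.7% and 28.6% of troponin I UMIs. For both, the intervals of the E13.5 and E14.5 controls overlapped and the DCKO share was highest. The DCKO interval of Tnni2 (15.7% to 44.6%, 12 of 42 UMIs) overlapped those of the other libraries. That of Tnnc2 (39.3% to 57.0%) overlapped the interval of the Glut3f/+ library. Of the Tnnc2 UMIs, 58.7% in the DCKO library and 68.6% in the E14.5 control came from 1 cell. Myh3 gave 82.5% (81.0% to 83.96%), 69.7% (62.3% to 76.4%), 73.1% (68.9% to 76.9%) and 77.3% (66.2% to 86.2%) of sarcomeric myosin heavy chain UMIs. Myh8, the perinatal chain, gave 9.21%, 18.9%, 18.6% and 12.0%. Myh1 went the opposite way to Acta1, at 1.75% (1.27% to 2.34%), 9.14% (5.32% to 14.4%), 1.84% (0.843% to 3.46%) and 6.67% (2.20% to 14.9%), on 44, 16, 9 and 5 UMIs. Embryonic myosin led in every library. Shares compare UMIs of different genes, and 3' counting needs no correction for length.

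Energy genes were called with age in particular lists. Of the creatine and energy buffer list, 4 of 6 tested genes were called lower with age (Ak1, Mb, Fabp3 and Cox6a2, list median -1.05), against 3.7% of all genes. In the Glut3f/+ library 2 of 4 were called higher (Fabp3 and Cox6a2), and 0 of 2 were called in the DCKO library. Of 72 nuclear genes of oxidative phosphorylation, all tested in each comparison, 0 were called, with medians of 0.02, 0.05 and 0.05 for age, the Glut3f/+ library and the DCKO library. Of 15 glycolysis genes tested with age, 5 were called. Hk2, the hexokinase that commits glucose, was called higher at 1.48, and Pgam2, Eno1, Eno3 and Ldhb lower, with Eno1 lowest at -1.69. In the Glut3f/+ and DCKO libraries 0 of 15 were called. Gapdh stood at 2486, 2574, 2881 and 2522 CPM and Ldha at 834, 706, 943 and 875 CPM. The medians of the glycolysis list were -0.20, 0.42 and 0.11. Of the 13 genes of the mitochondrial genome, 0 were called in each comparison.

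Immediate-early genes, which also respond to tissue digestion, had 3 of 15 tested called higher in the Glut3f/+ library (Fos, Fosb and Klf4). In the DCKO library 3 of 14 were called higher (Fosb, Ier3 and Ccn1). Over all genes, 1.56% and 0.517% were called higher. With age 2 of 14 were called lower (Fosb and Ccn1). In the hypoxia list 1 of 10 tested genes was called in the Glut3f/+ library, P4ha2, a collagen prolyl hydroxylase, at 12.7 and 38.8 CPM, and 0 of 9 in the DCKO library. Of 8 tested targets of the amino acid stress factor ATF4, 1 was called in the Glut3f/+ library, Asns, asparagine synthetase, higher at 13.9 and 31.0 CPM. In the DCKO library 0 of 7 were called, and with age 1 of 7, Psat1, was called higher at 1.02. In non-muscle cells of the E14.5 control and the Glut3f/+ library P4ha2 stood at 163.9 and 208 CPM and Asns at 41.0 and 100.01 CPM. In DCKO members P4ha2 and Asns each had 18 UMIs (38.8 CPM), under the limit for a call. The TGF-beta family had 0 of 14 called in either genotype comparison, and Fst, which encodes follistatin, was called lower with age, from 93.8 to 15.0 CPM. Of the imprinted and IGF genes 1 of 20 was called with age (Igfbp4, at -1.34) and 0 of 20 in each genotype comparison. Of the Notch list 0 of 3 were called in each comparison, Heyl being counted with the progenitor genes. Of the axon guidance genes 0 of 5, 0 of 4 and 0 of 4 were called.

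Promoter sequence was examined because many contractile genes were called together between libraries and receptor genes were higher together over the ranges. RefSeq promoters (GRCm38.p6, 250 bases before to 50 after the start) matched 20267 of 32285 genes, with 24834 promoters. The motifs were CANNTG, the E-box of basic helix-loop-helix factors, CAGCTG, a form of CANNTG that myogenic factors prefer, and CTANNNNTA, the core of the MEF2 site, searched on both strands. They were found in 70.2%, 16.1% and 19.7% of all promoters. CAGCTG was found in 8 of 17 thin filament promoters (47.1%), 7 of 21 thick filament promoters (33.3%), 4 of 8 promoters of the synapse list (50%) and 3 of 21 of the titin and Z disc list (14.3%). CTANNNNTA was found in 13 of 21 promoters of the titin and Z disc list (61.9%), 10 of 21 of the thick filament list (47.6%), 5 of 17 of the thin filament list (29.4%) and 1 of 8 of the synapse list (12.5%). Among 64 promoters of oxidative phosphorylation genes, CAGCTG was found in 7.81% and CTANNNNTA in 12.5%. A match describes letters and not a bound site.

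The promoters of Chrna1 and Chrng are shown because these receptor subunits were higher together over the contractile ranges, and that of Myog because this factor marks the members by their rule. Each is printed 5′ to 3′ on the strand of the gene, and capitals mark CANNTG and, on either strand, CTANNNNTA, which stands as its reverse complement where it lies on the other strand. Myog lies at chr1:134289754-134290053 on the plus strand, Chrna1 at chr2:73580289-73580588 on the minus strand and Chrng at chr1:87205561-87205860 on the plus strand.
Myog: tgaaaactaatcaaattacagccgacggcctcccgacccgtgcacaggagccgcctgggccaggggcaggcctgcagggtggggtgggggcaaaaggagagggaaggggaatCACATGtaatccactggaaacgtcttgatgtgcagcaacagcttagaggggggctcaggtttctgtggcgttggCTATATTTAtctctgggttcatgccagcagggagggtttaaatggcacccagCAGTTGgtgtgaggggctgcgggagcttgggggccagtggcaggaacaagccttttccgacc
Chrna1: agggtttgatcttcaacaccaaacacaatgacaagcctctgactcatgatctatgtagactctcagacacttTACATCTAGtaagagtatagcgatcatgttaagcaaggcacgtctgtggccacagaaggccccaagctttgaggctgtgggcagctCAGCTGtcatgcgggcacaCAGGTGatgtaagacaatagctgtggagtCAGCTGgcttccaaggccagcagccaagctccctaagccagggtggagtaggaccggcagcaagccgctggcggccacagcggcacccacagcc
Chrng: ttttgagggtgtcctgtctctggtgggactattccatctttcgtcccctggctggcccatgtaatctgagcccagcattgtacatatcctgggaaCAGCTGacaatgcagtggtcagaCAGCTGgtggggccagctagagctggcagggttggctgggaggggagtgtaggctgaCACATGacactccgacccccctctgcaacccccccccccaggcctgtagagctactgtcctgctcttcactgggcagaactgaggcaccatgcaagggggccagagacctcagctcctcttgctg
The Myog promoter holds 2 CANNTG and 1 CTANNNNTA, each receptor promoter holds 2 CAGCTG among 3 CANNTG, and that of Chrna1 also holds 1 CTANNNNTA, on the other strand.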

How the data were processed

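The authors made 10x Genomics 3' v3.1 libraries, ran Cell Ranger 6.1.2 (mm10) and deposited raw UMI counts of called cells, and used Seurat 3. Here those counts were read with Python 3.11.15, numpy 2.4.6, scipy 1.17.1 and pandas 2.3.3, and drawn with matplotlib 3.10.9. Gene identifiers were matched to GENCODE M21 (32158 of 32285). Members and lists were chosen with earlier results of these data known. UMIs were summed over the members of a library, and log2 ratios of CPM used a prior count of 0.5, with exact conditional binomial intervals. No test across libraries was possible with 1 library per condition. Genes were tested for a call with at least 20 CPM and 20 UMIs in either group. List medians took genes with 10 or more UMIs in either group. No doublet caller was run.

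Named genes were the marker, rule and floxed genes, the 4 most abundant and the extreme members of each list, and the 10 largest called rises and falls per comparison that were also 2-fold above non-muscle cells. Some met this limit only in the library where they were higher, so it favours large differences. Other genes were chosen after their values were seen. Alternatives changed the UMI rule, the cell filters, the scaling, the low-value filter, the prior count and the members included.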

Additional observations from a re-analysis of the deposited data

Results flagged for a closer look

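The upper limit of 6000 genes set aside cells that met the UMI rule. In the E13.5 control 16 of 183 cells over the limit had 2 or more UMIs of Myog and Mymk, or 8.74% (5.08% to 13.8%), above the 1.64% that a count of 0 allows. In the other libraries 0 of 89, 0 of 80 and 0 of 67 did.

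A few genes moved in opposite directions between members and progenitors in 2 libraries. Kif23, a kinesin of cytokinesis, had a log2 ratio of 1.42 (0.14 to 3.27) in the DCKO library, on 27 and 5 UMIs, and of -1.04 in the E13.5 control. Osr2, a joint transcription factor, had 1.18 in the Glut3f/+ library, on 29 and 10 UMIs, and -2.19 in the E14.5 control. Against DCKO progenitors with 0 UMIs taken as 3, Hapln1 had 1.91 on 21 member UMIs, Snorc 2.76 on 38 and Lum 1.52 on 16, while in the E14.5 control the ratios were -1.30, -1.40 and -1.37. Of the chondrocyte list, 9 of 9 tested genes were called higher in DCKO members than in DCKO progenitors (median log2 3.15), against 5.29% of all genes. In the E14.5 control 3 of 13 were called lower, against 5.33% of all genes. Hapln1 and Snorc are cartilage genes, and Lum is a fibroblast gene. The difference between libraries was not tested for any of these genes.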

How the results depend on the processing

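With 1 or more UMIs as the rule, members were 5.79%, 2.21%, 2.50% and 0.690% of kept cells and 73.3%, 67.3%, 65.0% and 69.6% of lineage cells, contractile medians were 0.453%, 0.463%, 0.406% and 0.347%, and 50 genes were called in the Glut3f/+ comparison, 48% of them higher in place of 74.8%, with 30 shared with the 111 of the reported rule. The age comparison then had 34.4% of its calls higher in place of 22.7% and shared 140 of 264, and the DCKO comparison shared 51 of 142. With 3 or more, E13.5 members were 2.85% of kept and 47.4% of lineage cells with a contractile median of 1.04%, and E14.5 control members 46.9% of lineage cells. Counting lineage cells from 1 UMI gave 34.6%, 39.4%, 36.2% and 35.5%, and thinning gave 2.13%, 0.930%, 1.03% and 0.233% of kept cells. Leaving out the tenth of members highest in markers of other cells gave 2.97% of kept and 49.4% of lineage cells at E13.5.

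The ranges were drawn on contractile RNA, so leaving out the highest, chosen after seeing the data, acts on contractile ratios by construction and tests nothing. Contractile medians were then -0.13, -0.24 and -0.66 for age, Glut3f/+ and DCKO, and 34.7% of the age calls were higher. In the Glut3f/+ comparison Acta1 was -0.38, Tnnc2 -0.38, Myh3 -0.20 and the uncalled Ttn -0.58, and in the DCKO comparison Acta1 was -0.074 and Actn2 -0.15. Of the named genes and comparisons, 39 then stayed within their counting interval, 28 moved beyond it, 5 changed sign after a call, and 6 besides Slc2a3 in the DCKO comparison had no ratio left. Without the single highest member of each gene, also chosen after seeing the data, 218 DCKO genes were called, 3.67% of them higher in place of 18.3%, and Acta1 was -0.053. This takes 1 of 44 DCKO and 1 of 129 control cells per gene and tends to lower DCKO ratios by construction. The median over all genes was then -0.19. Weighting members equally gave an age median of -1.16 and 60.2% of called Glut3f/+ genes higher in place of 74.8%. Calling without the low filter gave 871, 372 and 264 genes, with 35.2% of the DCKO calls higher. Without the members highest in other markers, 17 of 78 named ratios moved beyond their counting interval, and 73 of 111 Glut3f/+ calls and 88 of 142 DCKO calls were shared. A prior count of 2 gave 27.8% of the DCKO calls higher in place of 18.3%.

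Myog alone, 1000 to 6000 genes with at most 5% mitochondrial UMIs and a total without contractile genes moved no share, median or named gene beyond its interval and no count of calls by over 1.5 times.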

Other observations

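Of the members, 17, 8, 22 and 3 in the 4 libraries had 20 or more UMIs of Col2a1, a limit chosen after the data were seen. Members ranged in depth from 509 to 52499 UMIs at E13.5 and from 1475 to 24649 in the DCKO library. The highest number of UMIs of Myog and Mymk in a single member was 142, 93, 88 and 50 in the 4 libraries, and the median was 12, 21, 18 and 9. Mitochondrial genes gave a median of 3.16%, 2.87%, 3.22% and 2.80% of a member's UMIs. The E14.5 control is shared by both genotype comparisons and by the age comparison, so their values are not independent of each other.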
